A study of Rattus norvegicus with 28 samples.

Results

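The chemokine ligands Ccl2, Ccl3, Ccl4, Ccl7, Ccl20, Cxcl1, Cxcl2, Cxcl10 and Cxcl16 were examined in rat hippocampus. They were taken as the non-control probes of the gene expression arrays whose accession maps to 1 of these 9 symbols. This gave 10 of 30367 probes, with 2 for Ccl20 and 1 for each of the others. The arrays were 1-colour Agilent arrays, and each carried the labelled RNA of the whole hippocampus of 1 adult male Sprague-Dawley rat, collected 24 h after injury or sham treatment. The 5 groups were Sham (prepared for injury but not injured, n = 2), TBI (severe parasagittal fluid-percussion traumatic brain injury, n = 3), and the same injury with imipramine (TBI+Imipramine, n = 3), with Prozac (TBI+Prozac, n = 3) or with Zoloft (TBI+Zoloft, n = 3). Imipramine is a tricyclic antidepressant, and Prozac (fluoxetine) and Zoloft (sertraline) are selective serotonin reuptake inhibitors. Each drug was given intraperitoneally 1 h after injury. By the study's methods, rats got either an antidepressant or vehicle, and the sample labels name no vehicle. No group analysed here was uninjured and given a drug. All rats were of 1 sex and 1 strain, and a single time point was sampled.

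Chemokines are small secreted proteins that bind G protein-coupled receptors on leukocytes and draw these cells along a gradient. In injured brain they are made by microglia, astrocytes, endothelial cells and arriving leukocytes, and their genes are switched on by inflammatory signals, many of them through the transcription factor NF-kB. Ccl2 and Ccl7 attract monocytes through Ccr2. Ccl3 and Ccl4 attract monocytes and T cells, Ccl3 in part through Ccr1. Cxcl1 and Cxcl2 attract neutrophils through Cxcr2. Cxcl10 is induced by interferons and attracts T cells through Cxcr3, Ccl20 acts on Ccr6, and Cxcl16 is made as a membrane-bound protein that is shed and binds Cxcr6.

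Of the 9 genes, Ccl2, Ccl7, Ccl3, Ccl4 and Cxcl16 lie on chromosome 10 of the RefSeq rat gene table, where Ccl2 is next to Ccl7 and Ccl3 next to Ccl4. Cxcl1 and Cxcl2 are neighbours on chromosome 14. The promoter table held 6 of the 9 genes, Ccl7, Ccl20, Cxcl1, Cxcl2, Cxcl10 and Cxcl16. The 250 bases upstream of each start (RefSeq, assembly GRCr8) were searched for 4 motifs. These were the NF-kB consensus, the AP-1 site TGANTCA and the interferon-stimulated response element core GAAANNGAAA, on both strands, and the TATA box TATAAA on the sense strand. The 5 sequences with a match to the NF-kB consensus are shown because these genes share it although they lie on chromosomes 9, 10 and 14. They are printed in the direction of transcription, with every matched motif in capitals.
Ccl7 (chr10:67513845-67514094, plus strand): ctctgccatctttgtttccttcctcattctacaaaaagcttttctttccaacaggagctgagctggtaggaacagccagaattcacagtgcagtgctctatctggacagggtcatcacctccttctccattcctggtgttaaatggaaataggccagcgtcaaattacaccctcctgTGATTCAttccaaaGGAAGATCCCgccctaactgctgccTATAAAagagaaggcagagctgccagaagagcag
Cxcl1 (chr14:17479322-17479571, minus strand): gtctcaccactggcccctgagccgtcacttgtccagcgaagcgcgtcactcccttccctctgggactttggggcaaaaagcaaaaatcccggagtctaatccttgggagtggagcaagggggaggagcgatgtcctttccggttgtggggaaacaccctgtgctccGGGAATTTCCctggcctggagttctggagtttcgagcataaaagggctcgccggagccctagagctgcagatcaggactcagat
Cxcl2 (chr14:17467256-17467505, minus strand): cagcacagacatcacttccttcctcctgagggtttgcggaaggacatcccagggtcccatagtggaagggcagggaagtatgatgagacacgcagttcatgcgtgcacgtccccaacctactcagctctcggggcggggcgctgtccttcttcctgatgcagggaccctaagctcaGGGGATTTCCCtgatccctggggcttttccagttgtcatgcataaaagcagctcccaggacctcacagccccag
Cxcl10 (chr14:15988816-15989065, plus strand): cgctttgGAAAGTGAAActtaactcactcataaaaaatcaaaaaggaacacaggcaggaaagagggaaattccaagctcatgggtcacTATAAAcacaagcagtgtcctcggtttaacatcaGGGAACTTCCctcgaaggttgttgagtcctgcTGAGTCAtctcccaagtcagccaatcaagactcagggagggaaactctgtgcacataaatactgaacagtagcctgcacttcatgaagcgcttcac
Ccl20 (chr9:91836909-91837158, plus strand): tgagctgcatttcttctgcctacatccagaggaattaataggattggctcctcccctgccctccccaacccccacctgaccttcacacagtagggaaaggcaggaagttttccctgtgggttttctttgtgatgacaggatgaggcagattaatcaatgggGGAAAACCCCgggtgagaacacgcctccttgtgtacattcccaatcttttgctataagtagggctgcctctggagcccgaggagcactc
The NF-kB match began 59 bases upstream of the start in Ccl7, 84 in Cxcl1, 74 in Cxcl2, 128 in Cxcl10 and 89 in Ccl20. In Ccl7 and Ccl20 it was on the opposite strand, and in Cxcl2 there were 2 overlapping matches, the other at 73 bases. The consensus was present in 5 of the 6 chemokine promoters and in 4.24% of the 33469 promoters of the table. The AP-1 site was in 2 of the 6, Ccl7 (73 bases upstream) and Cxcl10 (96 bases), and in 6.34% of all promoters. The interferon-stimulated response element core was in Cxcl10 alone among the 6 (243 bases upstream) and in 3.41% of all promoters. The TATA box letters TATAAA were in Ccl7 and Cxcl10 (34 and 162 bases upstream) and in 8.06% of all. Only these exact letters were counted, at any place in the window, so that a match is not shown to be a working site. No motif matched in the window of Cxcl16. Both AP-1 matches were found on both strands at the same bases, and no other matches overlapped but the pair in Cxcl2.

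Signals are given as log2 of the processed signal over the 75th percentile of that array's probes above background, so that 0 marks that percentile and values compare arrays, not genes. Testing was limited to probes measured above background throughout 1 or more of the groups, 17322 of 30367 probes. The probes of 8 of the 9 chemokines were kept. Neither Ccl20 probe passed. Ccl3, Ccl4, Ccl7, Cxcl1 and Cxcl2 were above background on neither Sham array, Ccl2 and Cxcl10 on 1 Sham array, and Cxcl16 on both. All of these genes but Cxcl16 therefore passed through injured groups only, Cxcl2 through TBI+Imipramine alone. Counts over the 8 genes thus describe them and are no support for a difference. The 14 arrays had between 14676 and 18196 probes above background and no saturated spot. All 3 TBI arrays and TBI+Prozac replicate 1 shared slide 1, the other 8 drug arrays shared slide 2, and both Sham arrays were on slide 3, scanned on another day, so that slide and injury cannot be told apart in any comparison with Sham. Of 8 hippocampal neuron markers, 7 were above background on every array. Choroid plexus markers had a summed level of 0.611 in Sham replicate 1, 29.4 in Sham replicate 2 and 0.22 to 109 in the injured rats. In whole tissue, more or fewer cells of a type and more or less RNA per cell cannot be told apart.

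The monocyte attractants Ccl2 and Ccl7 were higher after injury in every rat. The log2 signal of Ccl2 was -7.12 and -5.11 in the Sham rats, and 0.80, 0.36 and -0.84 after TBI. With imipramine it was 1.55, 1.46 and 0.50, with Prozac 0.34, -0.31 and 0.64, and with Zoloft 0.24, -0.10 and 3.11. Every injured rat lay above both Sham rats, and the 4 injured groups overlapped. Ccl2 was higher after TBI than in Sham by 6.22 on the log2 scale (SE 0.86, 74.5-fold, limma adjusted p = 0.00082), with 1 of 2 Sham arrays above background. This difference was 5.21 without Sham replicate 1 and 7.22 without Sham replicate 2, and it passed in both cases (limma adjusted p = 0.015 and 0.0024). The log2 signal of Ccl7 was -7.43 and -6.75 in Sham, and -0.41, -0.59 and -1.65 after TBI. With imipramine it was 0.60, 0.44 and -0.31, with Prozac 0.03, -1.37 and -0.41, and with Zoloft -0.86, -0.98 and 2.14. TBI+Zoloft replicate 3 lay far above its group here too, and unlike for Ccl2 the imipramine values lay above those of TBI without overlap. Ccl7 was higher after TBI by 6.21 (SE 0.78, limma adjusted p = 0.0005). Since neither Sham array measured Ccl7 above background, the fold is given as a bound, at least 44.5-fold. Such a bound sets the mean of the brighter group against, per Sham array, the higher of the lowest signal above background and the probe's own signal.

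Ccl3 and Ccl4, which encode the macrophage inflammatory proteins, both rose after TBI. In the Sham rats Ccl3 had log2 signals of -7.09 and -7.44, and after TBI of -3.90, -2.997 and -4.96. With imipramine it was -2.69, -3.36 and -3.69, with Prozac -4.50, -5.04 and -4.03, and with Zoloft -4.42, -4.51 and -3.24. All injured rats lay above Sham, and within the injured rats imipramine and Prozac were the groups whose Ccl3 values did not overlap. Ccl3 rose after TBI by 3.31 (SE 0.53, at least 5.29-fold, limma adjusted p = 0.0018). Ccl4 had log2 signals of -7.23 and -7.09 in Sham, and -3.93, -2.90 and -5.09 after TBI. Its values with imipramine were -3.35, -3.41 and -3.45, with Prozac -4.40, -4.52 and -4.64, and with Zoloft -4.58, -4.79 and -4.60. The values of each drug group lay close together, those of TBI were spread over a range that covered all 3 drug groups, and imipramine lay above Prozac and Zoloft without overlap. Ccl4 rose after TBI by 3.19 (SE 0.42, at least 5.22-fold, limma adjusted p = 0.00064).

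Of the neutrophil attractants, Cxcl1 rose after TBI and Cxcl2 did not pass the test. The log2 signal of Cxcl1 was -7.69 and -7.44 in Sham, and -3.21, -2.51 and -3.99 after TBI. Its signals with imipramine were -2.21, -3.30 and -3.21, with Prozac -2.92, -3.35 and -3.18, and with Zoloft -3.21, -3.97 and -1.73. The 12 injured rats lay above Sham and their groups overlapped throughout. Cxcl1 rose after TBI by 4.33 (SE 0.57, at least 8.70-fold, limma adjusted p = 0.0006). Cxcl2 had log2 signals of -7.97 and -7.81 in Sham, and -6.24, -4.68 and -6.87 after TBI. The values with imipramine were -2.93, -5.97 and -5.40, with Prozac -6.45, -7.45 and -7.08, and with Zoloft -6.48, -5.84 and -3.21. Cxcl2 was above background on 1 TBI array, on all 3 imipramine arrays, on no Prozac array and on 1 Zoloft array, so that most of these values carry no more than an upper limit. Its difference between TBI and Sham was 1.96 (SE 0.99, limma adjusted p = 0.20).

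Cxcl10 and Ccl20 did not pass in TBI, and Cxcl16 did. For Cxcl10 the log2 signal was -7.89 and -5.71 in Sham, and -5.35, -5.64 and -4.41 after TBI. In the imipramine rats it was -4.91, -4.99 and -5.01, with Prozac -4.15, -4.86 and -4.20, and with Zoloft -4.77, -4.85 and -1.33. The Sham rats differed from each other by more than TBI replicate 2 did from Sham replicate 2, and TBI+Zoloft replicate 3 stood apart from every other rat. The difference of Cxcl10 between TBI and Sham was 1.67 (SE 0.89, limma adjusted p = 0.23), and it was 0.58 without Sham replicate 1 and 2.76 without Sham replicate 2. Without TBI+Zoloft replicate 3, which enters this comparison only through the shared estimate of spread, Cxcl10 passed in TBI, imipramine and Prozac against Sham (limma adjusted p = 0.044, 0.024 and 0.011).

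The brighter Ccl20 probe gave log2 signals of -8.52 and -8.32 in Sham, and -7.74, -5.94 and -5.28 after TBI. With imipramine it gave -8.38, -7.67 and -8.43, with Prozac -6.10, -8.39 and -9.01, and with Zoloft -7.58, -6.51 and -3.62. It was above background in TBI replicates 2 and 3, Prozac replicate 1 and Zoloft replicate 3, and in no Sham or imipramine rat. The second Ccl20 probe was above background in Zoloft replicate 3 alone, where it was -4.88. With no filter on dim probes the difference between TBI and Sham was 2.10 (SE 1.09, limma adjusted p = 0.32) for the brighter probe and 1.59 (SE 0.84, limma adjusted p = 0.33) for the second.

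Cxcl16 was the only 1 of the 9 chemokines above background on all 14 arrays. Its log2 signal was -3.84 and -2.54 in Sham, and -0.98, -1.09 and -1.36 after TBI. It was -0.36, -0.05 and -0.77 with imipramine, with Prozac -1.27, -0.94 and -0.33, and with Zoloft -0.60, -1.15 and -0.64. All injured rats lay above Sham, and the imipramine values lay above those of TBI without overlap. Cxcl16 rose after TBI by 2.04 (SE 0.37, 4.13-fold, limma adjusted p = 0.0033), and by 1.40 without Sham replicate 1 and 2.69 without Sham replicate 2 (limma adjusted p = 0.043 and 0.0018). Sham replicate 2, the Sham rat with the higher choroid plexus marker level, had the higher Ccl2, Cxcl10 and Cxcl16 of the 2 Sham rats, and the part of that tissue in the difference was not tested.

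**Figure D1:**
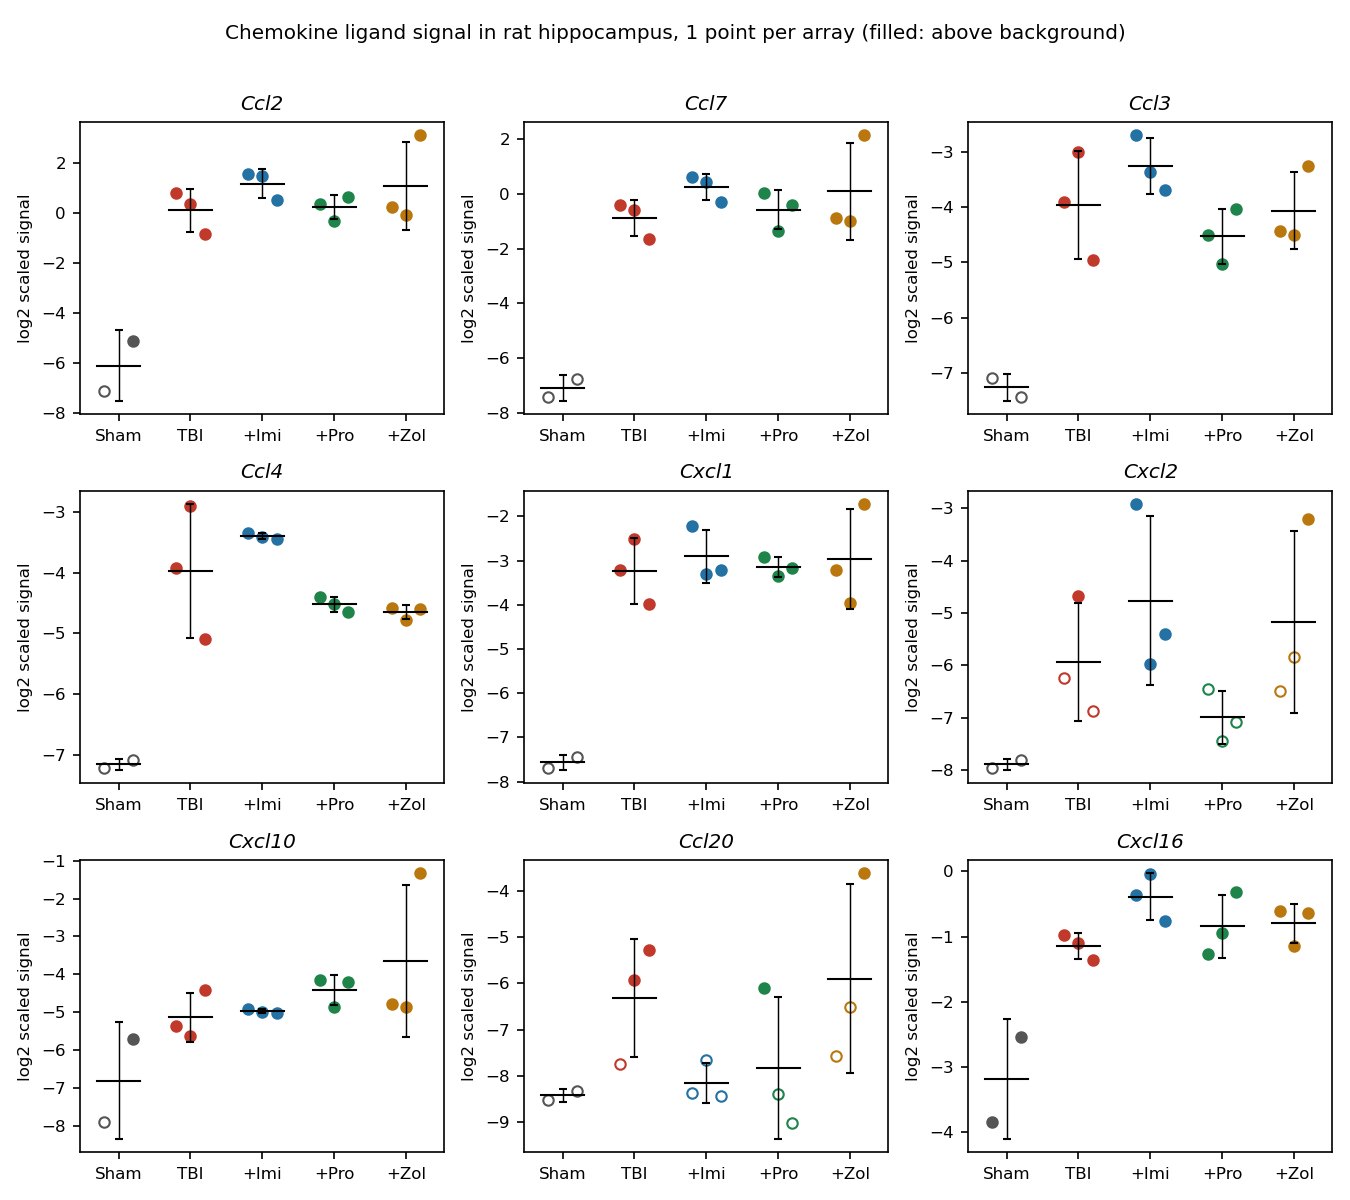
Log2 scaled signal of each chemokine (y axes, own scale per panel) in each of the 14 arrays by group (x axes; +Imi, +Pro and +Zol are the drug groups), with the group mean as a bar, the SD as an error bar, and filled points above background; Ccl20 is shown by its brighter probe. For every gene but Ccl20 both Sham arrays lie below all 12 injured arrays, and TBI+Zoloft replicate 3 is the highest injured array for Ccl2, Ccl7, Cxcl1, Cxcl10 and Ccl20.

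In all, 6 of the 8 tested chemokines rose after TBI and none fell, where 8.3% of all 17322 probes tested rose and 8.32% fell. The median difference over the 8 genes was 3.25 on the log2 scale, and that of all probes 0.0015. For all 8 genes no TBI value overlapped a Sham value, and all were higher in TBI, which held for 20.9% of all probes. All of these genes but Cxcl16 had passed the filter through injured groups only, so that these counts are a description. The values of genes near background depended on the background correction and the offset used with it. In an alternative, normexp with an offset of 50 added to every signal replaced the scanner software's own correction. The differences were then 4.06 for Ccl2, 3.55 for Ccl7, 1.46 for Cxcl1, 1.06 for Ccl3, 1.05 for Ccl4 and 1.62 for Cxcl16, and all 6 still passed (highest limma adjusted p = 0.024). Such an offset makes differences between low signals smaller, and its part was not tested apart from that of the correction. The methods' t-test gave 6 unadjusted and 0 when adjusted over all probes.

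Against the same 2 Sham arrays, imipramine gave 7 chemokines that rose, Prozac 6 and Zoloft 6, where 19.8%, 11.7% and 4.16% of all probes rose. These comparisons share their controls with each other and with that of TBI, and their values are set side by side only. The difference of Ccl2 was 7.29 with imipramine, 6.34 with Prozac and 7.20 with Zoloft (SE 0.86 each). For Ccl7 the fitted difference was 7.34, 6.51 and 7.19 (SE 0.78), at least 97.3-fold, 54.8-fold and 88.0-fold. For Ccl3 it was 4.02, 2.74 and 3.21 (SE 0.53), at least 8.63-fold, 3.57-fold and 4.92-fold, and for Ccl4 3.76, 2.64 and 2.50 (SE 0.42), at least 7.75-fold, 3.57-fold and 3.26-fold. Cxcl1 gave 4.66, 4.41 and 4.60 (SE 0.57), at least 10.9-fold, 9.25-fold and 10.5-fold. Cxcl16, measured on both Sham arrays, gave 2.80, 2.34 and 2.39 (SE 0.37). Without TBI+Zoloft replicate 3 the Zoloft differences were 6.18 for Ccl2, 6.17 for Ccl7 and 3.98 for Cxcl1, all still past the threshold. These 6 genes passed in every drug group (highest limma adjusted p = 0.0069). With normexp and its offset, however, Ccl3 and Ccl4 did not pass in Prozac (0.61 and 0.57, limma adjusted p = 0.20 and 0.13) or Zoloft (1.04 and 0.60, limma adjusted p = 0.064 and 0.18). Without Sham replicate 2 Ccl3 did not pass in Prozac (limma adjusted p = 0.053), and without Sham replicate 1 Ccl4 did not in Zoloft (limma adjusted p = 0.060). In a fit of the Zoloft and Sham arrays alone, Ccl2 and Cxcl16 did not pass (limma adjusted p = 0.051 and 0.067). The seventh gene in imipramine was Cxcl2, with a difference of 3.12 (SE 0.99, at least 3.02-fold, limma adjusted p = 0.039), which passed the filter through that group. It no longer passed without imipramine replicate 1, its highest array (2.20, limma adjusted p = 0.13), without either Sham replicate (limma adjusted p = 0.15 and 0.14) or with normexp (0.68, limma adjusted p = 0.31). Nor did Cxcl2 in imipramine pass when scaled over all probes, with quantile normalization, with no filter on dim probes or with a floor. The same held with a replicate block, in a fit of the imipramine and Sham arrays alone, and without TBI+Prozac replicate 3. Cxcl2 differed from Sham by 0.89 with Prozac and 2.71 with Zoloft, and Cxcl10 by 1.83, 2.40 and 3.15 with imipramine, Prozac and Zoloft, none of which passed (lowest limma adjusted p = 0.060). Cxcl10 with Zoloft did pass when scaled over all probes, with quantile normalization, with the series-table values and with slide as a random block (limma adjusted p = 0.048, 0.048, 0.048 and 0.038), and without Zoloft replicate 1 or 2 (limma adjusted p = 0.044 and 0.047). Since Sham was alone on its slide, the random block, with a fitted correlation of -0.058, cannot adjust a difference from Sham for slide. No drug value overlapped a Sham value in any of the 8 genes, where 41.9%, 36.7% and 19.8% of all probes lay above Sham in this way. For Cxcl2 no Prozac or Sham array was above background, so that this order is one of background signals. All of the 8 but Cxcl16 passed the filter through injured groups only, and this count is a description.

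**Figure D2:**
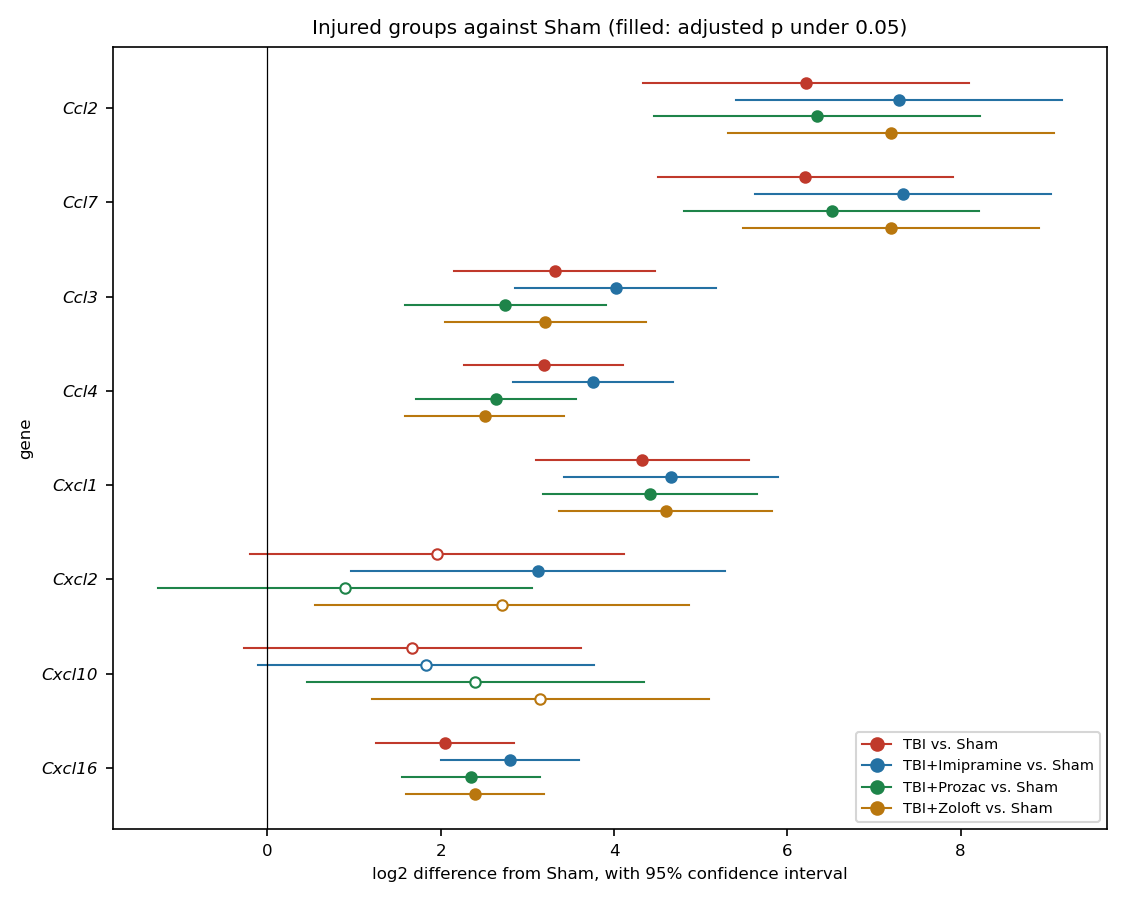
Log2 difference from Sham (x axis) of each tested chemokine (y axis) in the TBI group without an antidepressant and the 3 drug groups, with its 95% confidence interval as a line and a filled point where the limma adjusted p was under 0.05. Ccl2 and Ccl7 lie between 6.21 and 7.34 in all 4 groups, and for each gene the intervals of the 4 groups overlap.

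The next comparison asked whether an antidepressant given after injury changed the chemokines relative to TBI without an antidepressant. None of the 8 passed for imipramine, Prozac or Zoloft in limma after Benjamini-Hochberg adjustment, where 2.85%, 0.00577% and 1.38% of all probes passed. At an unadjusted p under 0.05 the counts were 1, 0 and 0, the 1 being Cxcl16 in imipramine, and the methods' t-test gave 1, 0 and 0 unadjusted and none when adjusted. At an unadjusted p under 0.05 lay 19.7%, 10.1% and 15.2% of all probes. With 3 rats a group the intervals were wide. The difference of Ccl2 from TBI was 1.07 with imipramine (95% confidence interval -0.61 to 2.75), 0.12 with Prozac (-1.56 to 1.80) and 0.98 with Zoloft (-0.70 to 2.66). For Ccl7 it was 1.13 with imipramine (-0.40 to 2.66), 0.30 with Prozac (-1.22 to 1.83) and 0.98 with Zoloft (-0.54 to 2.51). The upper end of each interval lay above 1 on the log2 scale, so that neither gene was shown to be alike with and without an antidepressant.

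All 8 differences of imipramine from TBI were above 0, with a median of 0.73, where the median of all probes was 0.20 under this scaling and -0.015 under quantile normalization. The others beside Ccl2 and Ccl7 were 0.70 for Ccl3, 0.57 for Ccl4, 0.33 for Cxcl1, 1.16 for Cxcl2, 0.16 for Cxcl10 and 0.75 for Cxcl16. Cxcl2 had passed the filter through imipramine alone. Ccl7 and Cxcl16 lay above TBI without overlap, as 25.2% of all probes did. That of Cxcl10 turned to -0.16 under quantile normalization, and that of Cxcl1 to -0.05 without TBI replicate 3 and -0.02 without imipramine replicate 1. The Cxcl16 interval was 0.04 to 1.47 (SE 0.33, unadjusted p = 0.040, limma adjusted p = 0.23). Of 7 monocyte and macrophage markers kept, 1 passed for imipramine against TBI and 6 did not, where 2.85% of all probes passed. The 1 was the scavenger receptor Msr1, higher with imipramine by 2.05 (SE 0.27, limma adjusted p = 0.0069). The summed level of the 7 such markers with a value on every array was 3.46 to 4.81 with imipramine against 2.15 to 2.97 after TBI. Lymphocyte markers had a summed level of 0.151 to 0.225 with imipramine against 0.0882 to 0.127 after TBI, and choroid plexus markers one of 103, 109 and 1.81 against 0.695, 1.95 and 29.0. The part of these cells in the chemokine differences was not tested. With Prozac 5 of the 8 differences were above 0 (median 0.10, all probes 0.15), and those of Ccl3, Ccl4 and Cxcl2 were -0.57, -0.55 and -1.07. With Zoloft 6 were above 0 (median 0.55, all probes 0.015), and those of Ccl3 and Ccl4 were -0.10 and -0.68. The Ccl4 difference with Zoloft was the 1 that passed with an array left out, at -1.24 without TBI replicate 3 (limma adjusted p = 0.038). TBI+Prozac replicate 1 was the only drug array on the slide of the TBI arrays. Within that slide it lay above all 3 TBI arrays for Ccl7 and Cxcl10, by 0.91 and 0.98 over the TBI mean, and within their range for the other 6 genes. Imipramine and Zoloft had no array on that slide, so that a fit with slide as a fixed block links them to TBI through that Prozac array alone. In this fit no chemokine passed for any drug against TBI. The difference of Ccl7 was then 2.05 with imipramine (SE 1.31) and 1.90 with Zoloft (SE 1.31), and that of Cxcl16 0.12 (SE 0.43) and -0.29 (SE 0.43).

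**Figure D3:**
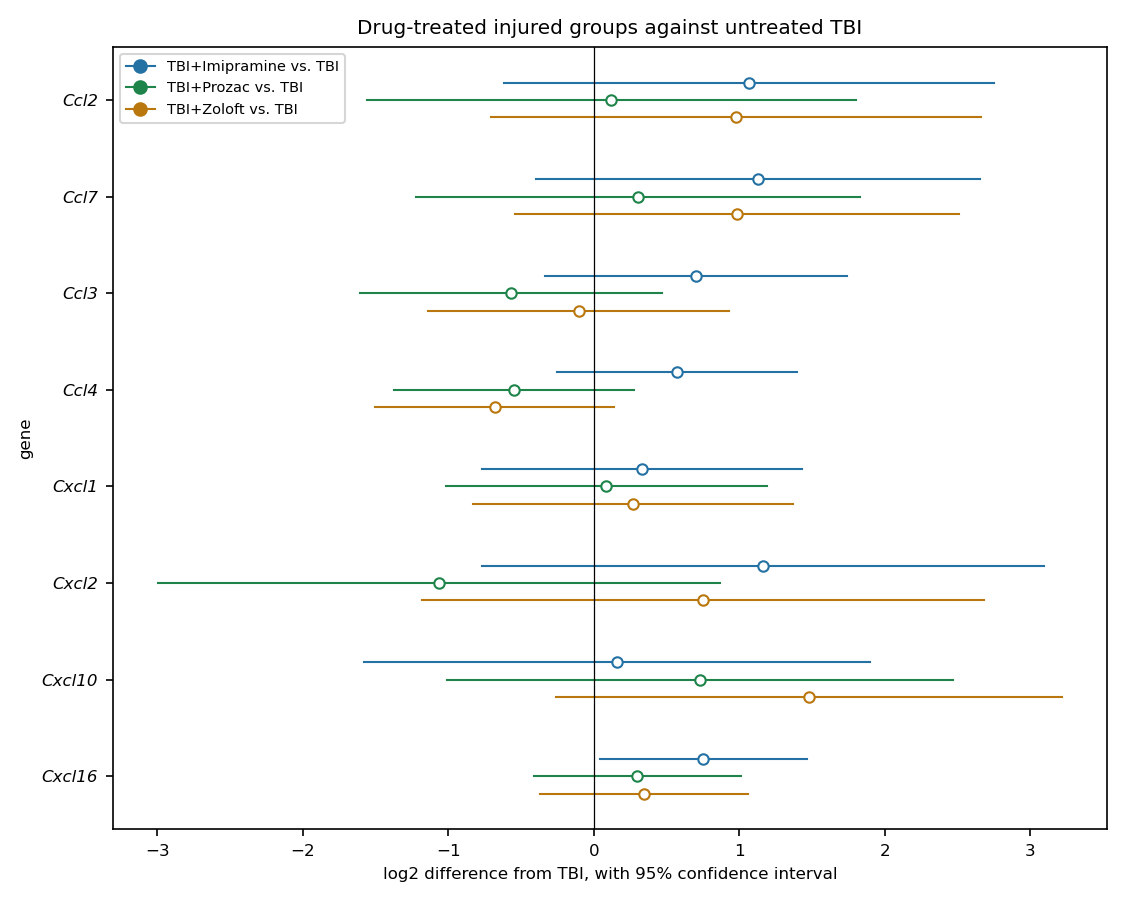
Log2 difference from TBI (x axis) of each tested chemokine (y axis) in the imipramine, Prozac and Zoloft groups, with its 95% confidence interval as a line. All points are open because no limma adjusted p was under 0.05, and every interval but that of Cxcl16 in imipramine, 0.04 to 1.47, crosses 0.

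Among the 4 injured groups none of the 8 genes differed in limma's F test (limma adjusted p from 0.14 to 0.94), where 3.9% of all probes did, and 1, Ccl4, had an unadjusted p under 0.05 (0.023). Of the 3 comparisons between drugs none gave a chemokine that passed, where 0.00577% of all probes passed between imipramine and Prozac, 5.29% between imipramine and Zoloft and 3.69% between Prozac and Zoloft. At an unadjusted p under 0.05 the counts were 3, 1 and 0, where 6.91%, 23.6% and 21% of all probes lay, and the methods' t-test gave 2, 1 and 0 unadjusted. Ccl4 was higher in imipramine than in Zoloft by 1.25 (SE 0.38, 95% confidence interval 0.43 to 2.08, limma adjusted p = 0.071) and than in Prozac by 1.12 (SE 0.38, limma adjusted p = 0.72), with no overlap in either case. The difference between imipramine and Zoloft passed without TBI replicate 2 or 3 (limma adjusted p = 0.025 and 0.018), which enter it only through the spread. It also passed in a fit of the 8 drug arrays of slide 2 alone, at 1.25 (SE 0.11, limma adjusted p = 0.022), where that with Prozac was 1.18 (SE 0.13, limma adjusted p = 0.12). Ccl3 was higher in imipramine than in Prozac by 1.27 (SE 0.48, limma adjusted p = 0.72) and Cxcl2 by 2.23 (SE 0.89, at least 3.41-fold, limma adjusted p = 0.72), both without overlap. Cxcl2 had passed the filter through imipramine alone, and no Prozac array measured it above background, so that its higher value there is no support for a difference. Without imipramine replicate 1 its difference was 1.31. Cxcl10 ran the other way, lower in imipramine than in Prozac by 0.57 and than in Zoloft by 1.32 without overlap (limma adjusted p = 0.94 and 0.35). The highest imipramine value was -4.91, and the lowest Prozac and Zoloft values were -4.86 and -4.85. Without TBI+Zoloft replicate 3 the Cxcl10 difference of imipramine from Zoloft was -0.16. Values higher in imipramine without overlap were found for 11.3% of all probes against Prozac and 26.6% against Zoloft, and lower ones for 6.02% and 3.15%.

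The rat of TBI+Zoloft replicate 3, singled out after its values were seen, stood apart for several chemokines. TBI+Zoloft replicate 3 had the highest value of the 12 injured rats for Ccl2, Ccl7, Cxcl1, Cxcl10 and both probes of Ccl20, the second highest for Cxcl2 and the third for Ccl3. It ranked 9 of 12 for Ccl4 and 5 for Cxcl16. It exceeded the mean of the other 2 Zoloft rats by 3.04 for Ccl2, 3.06 for Ccl7, 3.48 for Cxcl10, 2.95 for Cxcl2, 3.42 for Ccl20, 1.86 for Cxcl1 and 1.22 for Ccl3, and by 0.08 for Ccl4 and 0.23 for Cxcl16. Without it the differences of Zoloft from TBI were -0.04 for Ccl2, -0.04 for Ccl7, -0.35 for Cxcl1, -0.23 for Cxcl2 and 0.32 for Cxcl10, and 6 genes still passed against Sham. Its array had 16962 probes above background, a choroid plexus marker sum of 1.79 and a blood marker sum of 36.8, all within the range of the other injured rats. It had the lowest microglia marker sum of the 12 injured rats, 10.4, and the lowest lymphocyte marker sum of all 14, 0.0781. Its monocyte and macrophage marker sum was 3.95 against 2.81 and 2.35 in the other Zoloft rats, and its neutrophil marker sum 2.37 against 1.39 and 1.90. The part of these cells in its chemokine values was not tested.

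Over the 12 injured rats some pairs of chemokines varied together. Of the 28 pairs of the 8 genes, 27 had a positive Pearson's r (median 0.57), 11 passed for r, 7 for Spearman's rho and 6 for both (permutation tests with 100000 resamples, Benjamini-Hochberg adjusted over the 28 pairs). The neighbours Ccl2 and Ccl7 had the highest r, 0.98 (rho 0.90, permutation adjusted p = 0.00056 and 0.0031). It was 0.92 without the 2 rats farthest from the Ccl2 median, 0.996 within slide 2 (n = 8, exact permutation adjusted p = 0.0021) and 0.94 without TBI+Zoloft replicate 3. This was the 1 pair of 28 that also passed within slide 2 and without the 2 farthest rats, while 13 passed without TBI+Zoloft replicate 3 alone. The neighbours Ccl3 and Ccl4 had an r of 0.78 (rho 0.70, permutation adjusted p = 0.016 and 0.052), which was 0.67 within slide 2, 0.77 without the 2 farthest rats and 0.90 without TBI+Zoloft replicate 3. Cxcl1 and Cxcl2 had an r of 0.79 (rho 0.59, permutation adjusted p = 0.016 and 0.099), which was 0.79 within slide 2 (exact permutation adjusted p = 0.080) and 0.68 without TBI+Zoloft replicate 3 (permutation adjusted p = 0.046), but fell to 0.41 without the 2 farthest rats and so rests on them. Ccl3 and Cxcl2, which are not neighbours, had an r of 0.84 (rho 0.82, permutation adjusted p = 0.0057 and 0.017), 0.84 within slide 2 and 0.72 without the 2 farthest rats. Cxcl2 was above background on all 3 imipramine arrays, 1 TBI array, 1 Zoloft array and no Prozac array. The pairs with Cxcl2 therefore hold many values that are upper limits only.

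Cxcl10 passed for r with none of the other 7 genes. Its r with Ccl2 was 0.63 and with Ccl7 0.67, but the rho was -0.10 and 0.11, and without TBI+Zoloft replicate 3 the r was -0.27 and -0.10. With Ccl4 its r was -0.46 and its rho -0.72 (permutation adjusted p = 0.18 and 0.044), and the r was -0.38 within slide 2, -0.34 without the 2 farthest rats and -0.71 without TBI+Zoloft replicate 3 (permutation adjusted p = 0.038). These arrays share their slides and their treatment groups. The r of the deviations from the group means, given as a description, was 0.97 for Ccl2 and Ccl7, 0.71 for Ccl3 and Ccl4, 0.89 for Cxcl1 and Cxcl2, 0.82 for Ccl3 and Cxcl2, 0.72 for Ccl2 and Cxcl10 and -0.24 for Ccl4 and Cxcl10.

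**Figure D4:**
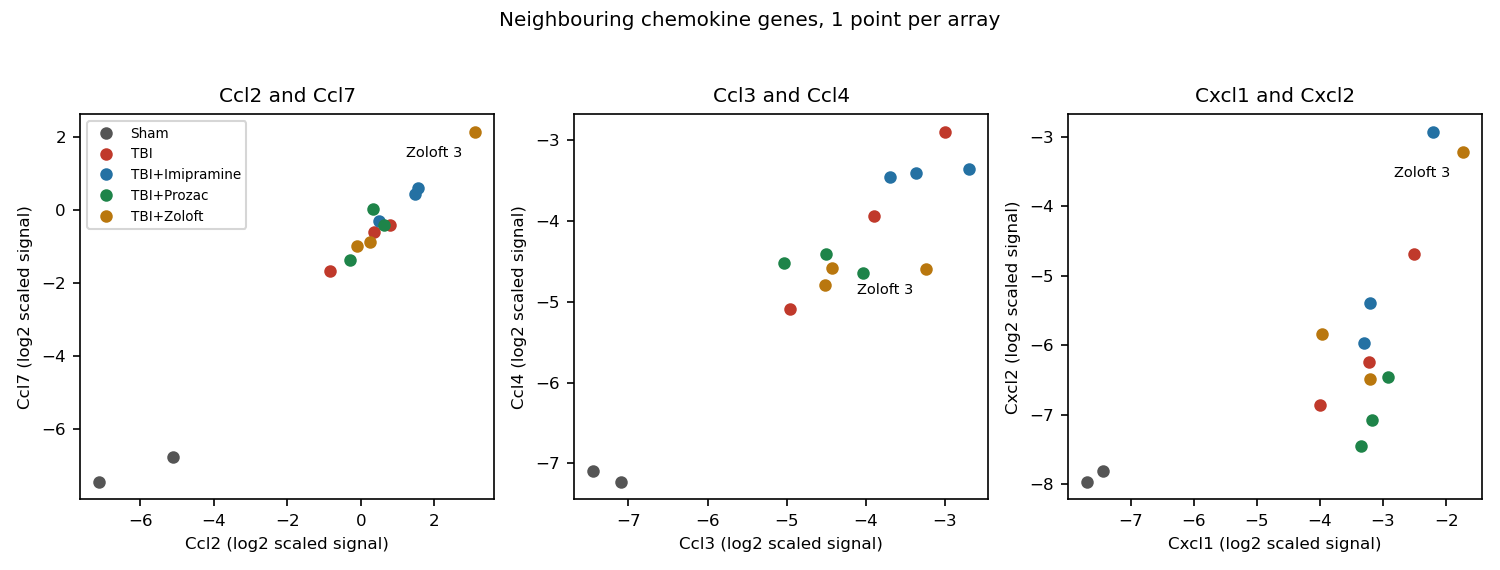
Log2 scaled signal of the neighbouring genes Ccl2 and Ccl7, Ccl3 and Ccl4, and Cxcl1 and Cxcl2 (x and y axes), with 1 point per array coloured by group and TBI+Zoloft replicate 3 marked. The points of Ccl2 and Ccl7 lie close to a line over the injured rats (r = 0.98), and in the Ccl3 and Ccl4 panel TBI+Zoloft replicate 3 lies off it, with -3.24 for Ccl3 and -4.60 for Ccl4.

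The genes most like the chemokines over the injured rats were found by the r of each gene with the mean of the centred log2 values of the 7 chemokines above background on all 12 injured arrays, which leaves out Cxcl2 and Ccl20. Of 8832 genes above background on all 12 arrays, the 6 with the highest r were Spidr (0.95), Hmox1 (0.94), Pvr (0.93), Tax1bp3 (0.93), Raver1 (0.92) and Pmm2 (0.91). Hmox1 encodes the inducible heme oxygenase that breaks down heme, and Pvr a surface receptor of the nectin family. All 6 had their highest value in TBI+Zoloft replicate 3, and without it the r was between 0.84 and 0.91. These are the extremes of many genes over few rats and are given as a description.

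Beside the 9 chemokines, 25 of 26 other chemokine ligands listed had a probe and 14 were kept. Of the 14, 4 rose after TBI and 1 fell, with a median difference of 0.87, against 6 and 0 of 8 and 3.25 for the genes above. Among all probes tested 8.3% rose and 8.32% fell, with a median of 0.0015. Cxcl13, the B cell attractant, rose by 4.67 (SE 0.60, at least 7.13-fold, limma adjusted p = 0.00053). Ccl12 rose by 3.58, Ccl6 by 2.34 and Ccl5, a T cell attractant, by 1.61 (limma adjusted p = 0.007, 0.024 and 0.0054). Ccl24, an eosinophil attractant, fell by 0.75 (SE 0.13, limma adjusted p = 0.0031).

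The receptors of the chemokines were mostly at background in this tissue. Of 17 receptors with a probe 6 were kept, 1 of which passed as higher and 1 as lower after TBI. The shares of all probes tested were 8.3% higher and 8.32% lower. Ccr2, the receptor of Ccl2 and Ccl7, was above background on 1 of 14 arrays, in an imipramine rat. Cxcr2, the receptor of Cxcl1 and Cxcl2, was likewise above background on 1, also with imipramine. Ccr6, Cxcr3 and Cxcr6, the receptors of Ccl20, Cxcl10 and Cxcl16, were above background on none. Ccr1 had log2 signals of -8.28 to -8.05 in Sham, -6.94 to -5.77 after TBI, -5.48 to -4.46 with imipramine, -6.58 to -5.96 with Prozac and -6.83 to -4.75 with Zoloft. All injured rats lay above Sham for Ccr1, and the fitted difference of TBI from Sham was 1.76 (SE 0.54, limma adjusted p = 0.043). Since only 1 TBI array and no Sham array measured it above background, no fold is given, and it was kept through imipramine alone. Ccr1 was higher in imipramine than in TBI by 1.48 (SE 0.48, limma adjusted p = 0.13), without overlap. Ccr9, a receptor of thymus and gut T cells, fell after TBI by 0.98 (SE 0.19, limma adjusted p = 0.0055). Of the atypical receptors, which bind chemokines without signalling through G proteins, 2 were kept and neither passed.

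**Figure D5:**
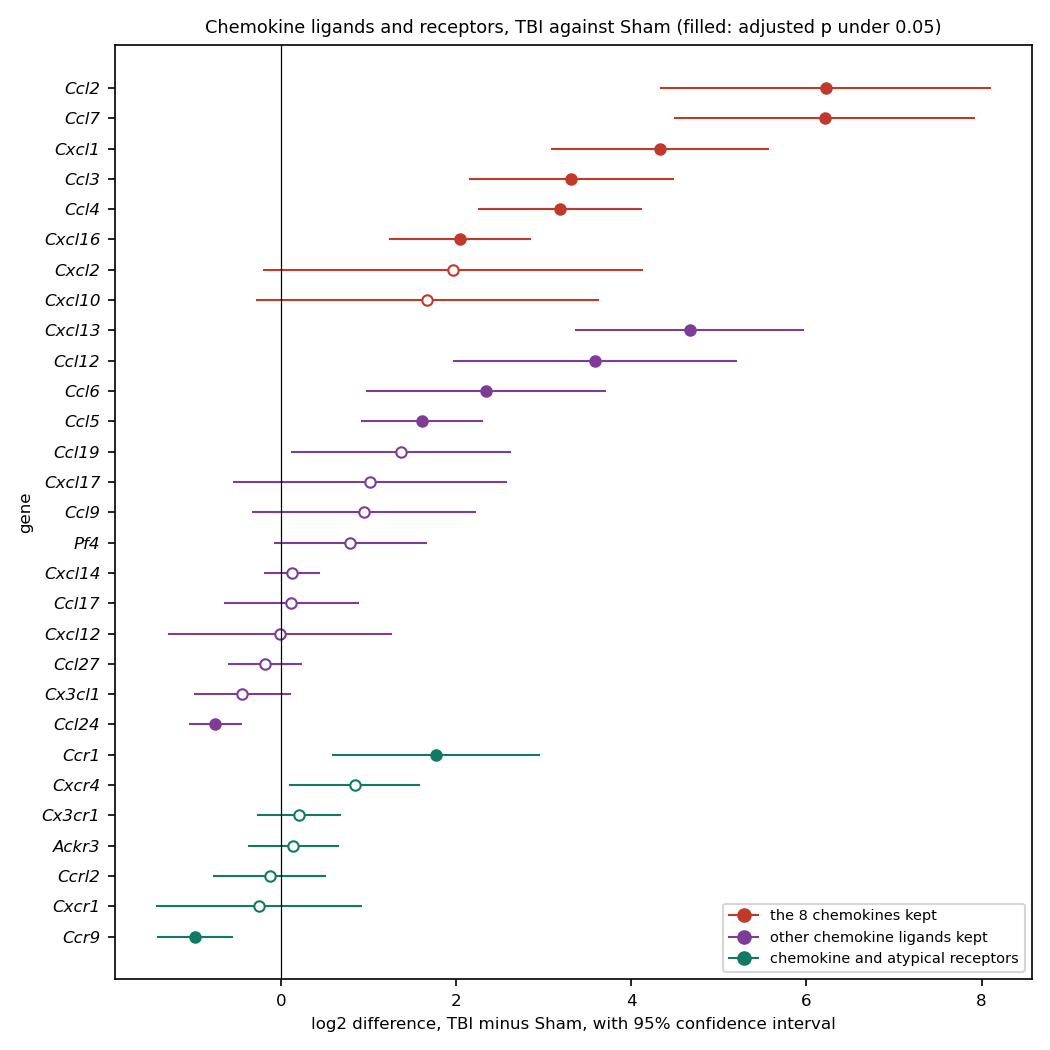
Log2 difference between TBI and Sham (x axis) with its 95% confidence interval for the 8 tested chemokines, the 14 other chemokine ligands kept and 7 of the chemokine and atypical receptors kept (y axis), filled where the limma adjusted p was under 0.05. Ccl2 and Ccl7 are drawn at 6.22 and 6.21 and Cxcl13 at 4.67, and these receptors lie between -0.98 and 1.76; genes above background on no Sham array have a bound only, given in the text.

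Of 11 kept genes on a list of NF-kB targets and feedback genes, 3 rose after TBI and none fell, with a median difference of 0.41. Over all probes tested 8.3% rose and 8.32% fell, with a median of 0.0015. Those 3 were Bcl3, an NF-kB cofactor, by 2.87, Birc3, an inhibitor of apoptosis, by 1.84 (at least 2.01-fold) and Icam1, an adhesion molecule for leukocytes, by 1.14 (limma adjusted p = 0.0052, 0.01 and 0.019).

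Markers of some of the cells that make or answer chemokines differed between TBI and Sham. Of all 17322 probes tested, 8.3% rose after TBI and 8.32% fell. Of 8 monocyte and macrophage markers, Lyz2 had no value in TBI+Zoloft replicate 1. The summed level of the other 7 was 0.590 and 0.894 in Sham and 2.10 to 4.81 in the injured rats, and 5 of 7 kept rose after TBI, among them Msr1 by 3.84 (at least 4.15-fold), Cd14 by 3.49, Fcgr1a by 1.91 and F10 by 1.71 (at least 2.31-fold). The defining markers Cd163 and Mrc1 were above background on no Sham array and on 2 and 1 of the 3 TBI arrays. The summed level of the neutrophil markers was 0.122 and 0.145 in Sham and 0.492 to 2.90 in the injured rats. S100a9 and S100a8 rose by 4.0 and 3.33, while 5 of the 8 markers with a probe, among them Elane, Ngp, Camp and Mmp8, were above background on no Sham or TBI array. Microglia markers had a summed level of 9.52 to 10.7 in Sham and 10.4 to 14.6 in the injured rats, and 2 of 9 rose, Cd68 by 1.67 and Itgam by 1.05. Of 3 lymphocyte markers kept 1 passed, Cd8a, which was at least 1.74-fold higher, with 2 TBI arrays and no Sham array above background, and was kept through imipramine. The other 2, Cd3d and Cd3e, differed by -0.50 and -0.31 (limma adjusted p = 0.15 and 0.72). Of the 6 astrocyte markers Gfap rose, by 1.88, and 4 had differences below 0, Aldh1l1 and Gja1 without overlap at -0.68 and -0.63 (limma adjusted p = 0.078 and 0.066), while for Aqp4, Slc1a3 and the endothelial Vwf a dimmer probe passed (1.19, 0.81 and 0.97) where the brightest did not (-0.07, -0.24 and 0.55). Of 5 endothelial markers kept Cldn5 rose, by 0.63, and none of the neuron, choroid plexus or blood markers kept passed. The part of these cells in the chemokine values was not tested.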

How the data were processed

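The 14 gene expression arrays were Agilent 1-colour arrays, each with the hippocampal RNA of 1 rat. The deposited scanner files held intensity values per spot from Agilent Feature Extraction 11.5.1.1, which per the file headers had subtracted and detrended the background, with flags for spots above background, saturated or outlying. The authors' series table, used as an alternative, held intensity values scaled to the 75th percentile. Flags and control types in the deposited files were read as they stand.

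Spots of a probe without an outlier flag were averaged, scaled to the array's 75th percentile of probes above background and log2 transformed. Above background meant that a share of over 0.5 of a probe's spots carried that flag, and probes that met this throughout 1 or more groups were kept. Probes were named through their accession in the RefSeq gene table (GRCr8). The arrays' own build differs, so that no array coordinate is given. Of the 30367 probes 18635 matched a symbol. The 5 groups were fitted together with limma 3.58.1 in R 4.3.3, with p-values of the 17322 kept probes adjusted by Benjamini-Hochberg and called under 0.05. A gene with several probes was given by its brightest. No Sham RNA beyond 2 arrays was analysed here, and p-values measure the spread between these rats.

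The chemokines and the gene lists were chosen with earlier results of these data known. All chemokines are given. Of the other lists, the receptors of the chemokines are named whatever their values, except for 1 that is not reported here, and per list up to 4 genes that rose and 2 that fell most after TBI. Replicate numbers did not pair the arrays, since arrays of the same number had correlations of their deviations from group means between -0.23 and 0.23. Alternatives were the scaling, quantile normalization, normexp (on the median signals, offset 50), the filter, a floor, slide and replicate blocks, the groups fitted, the methods' t-test (the test per probe that the study's methods name) and leaving out each array. The fit was tested on simulated data with known changes. No column of another series was used. MicroRNA arrays of the series were not used here.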

Additional observations from a re-analysis of the deposited data

How the results depend on the processing

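Of 25 chemokine differences from Sham that passed, none changed sign in 604 recomputations with limma. Of the 604, 585 stayed past the threshold and 19 did not, 11 of the 19 for Cxcl2 in imipramine. The methods' t-test was not among these 604. Slide as a random block was among them, although it cannot adjust a difference from Sham for slide. Restricted to probes above background on all arrays, the number that rose was 1 in each comparison with Sham, since Cxcl16 alone was then tested. The methods' t-test, Benjamini-Hochberg adjusted, gave 0 for TBI, 4 for imipramine, 0 for Prozac and 0 for Zoloft against Sham. Unadjusted it gave 1 for imipramine against TBI, 2 for imipramine against Prozac and 1 for imipramine against Zoloft. With each array left out in turn the counts were 6 to 7 for TBI, 6 to 8 for imipramine, 5 to 7 for Prozac and 5 to 7 for Zoloft against Sham. They were 0 to 1 for Zoloft against TBI, 0 to 1 for imipramine against Zoloft and 0 to 1 in the F test, all 3 resting on Ccl4 and on TBI replicates 2 or 3. Correlated pairs fell from 11 to 1 within slide 2 and to 1 without the 2 farthest arrays. Both settings hold fewer arrays, so that a pair can stop passing with its r unchanged. The farthest arrays were chosen on the first gene of each pair, which also narrows the range of that gene. The setting without TBI+Zoloft replicate 3 for the correlations and the fit of slide 2 alone were chosen after seeing the data. The cause of these changes was not tested.

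With a replicate block 6, 6, 6 and 6 chemokines passed in TBI, imipramine, Prozac and Zoloft against Sham. Imipramine lost Cxcl2 (3.08, limma adjusted p = 0.073), and no other call changed. Since the numbers do not pair the arrays, this is no sign of a weaker effect.

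Some differences between drug and TBI that did not pass changed sign. Scaled over all probes, by quantiles and from the series table, Cxcl10 in imipramine was -0.061, -0.16 and -0.062, Ccl2 in Prozac -0.044, -0.0093 and -0.051, and Cxcl1 in Prozac -0.077, -0.10 and -0.084. With slide as a fixed block Cxcl16 was -0.12 in Prozac and -0.29 in Zoloft. Cxcl2 in Prozac against Sham was -0.21 with normexp and -0.18 with a floor. With 1 array left out, the differences from TBI ranged from -0.047 to 0.70 for Cxcl1 and -0.092 to 0.52 for Cxcl10 in imipramine. In Prozac they ranged from -0.35 to 0.47 for Ccl2, -0.082 to 0.69 for Ccl7 and -0.29 to 0.45 for Cxcl1. In Zoloft they ranged from -0.037 to 1.57 for Ccl2, -0.61 to 0.37 for Ccl3, -0.036 to 1.52 for Ccl7, -0.35 to 0.77 for Cxcl1 and -0.23 to 1.41 for Cxcl2.

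Over all probes the number past the threshold for TBI against Sham moved from 2879 to 4446 when scaled over all probes, 4467 with quantile normalization, 1916 with no filter, 1540 with these groups alone and 1268 without Sham replicate 1. The 2 Sham arrays, and signals near background on them, limit every difference from Sham.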
